A study of Bos taurus with 18 samples.

Results

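The genes described here encode the machinery that starts transcription: subunits of RNA polymerases I, II and III, the TATA-box binding protein TBP with its associated factors (TAFs), the general transcription factors of the GTF2 family, and the Mediator complex. They were taken by symbol from a table of 21668 bovine genes, as every row named POLR1, POLR2 or POLR3 with a subunit letter, TAF with a number, GTF2A to GTF2H, MED with a number, or TBP. This gave 88 genes, and all 88 passed the filter on low reads that left 17138 genes to be tested. By complex they comprised 27 polymerase subunits, 14 genes of TFIID including TBP, 4 of SL1, 3 other TAFs, 7 of TFIIA, TFIIB, TFIIE and TFIIF, 5 of TFIIH and 28 of Mediator.

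RNA was sequenced from 18 libraries, 3 at each of 6 stages, to follow the activation of the embryonic genome. The stages were germinal vesicle (GV) oocytes, which are immature, metaphase II (MII) oocytes matured in vitro, embryos with 4, 8 or 16 cells, and blastocysts. A library represents 10 pooled oocytes or embryos. Oocytes were German Simmental and embryos German Simmental x Brahman, produced by in vitro fertilisation and culture. Breed and stage thus changed together between oocytes and embryos. They cannot be told apart in 4-cell embryos against MII oocytes or in blastocysts against GV oocytes. The labels number the replicates but do not say that they came from separate collections, and p-values measure the spread between these pools.

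As background, RNA polymerase II makes messenger RNA, while polymerase I makes the large ribosomal RNAs and polymerase III makes transfer RNAs and other short RNAs. TFIID (TBP and TAFs) recognises promoters of polymerase II genes, TFIIA, TFIIB, TFIIE, TFIIF and TFIIH build and open the complex around it, SL1 does the corresponding work for polymerase I, and Mediator joins the polymerase to regulators bound at enhancers. A fully grown oocyte and the embryo before genome activation are nearly silent in transcription and live on stored RNA and protein. RNA in an embryo may thus be inherited from the oocyte or made anew, and the levels given here do not separate these sources.

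Levels below are scaled counts, that is, reads recovered from the deposited values and divided by the size factor of the library. They give a gene's RNA relative to the other RNA of the library and not an amount per embryo, and they are not corrected for gene length, so levels are compared between stages and never between genes. Differences are those between mean deposited values, which are log2-like, given ± SE from limma. A gene was called higher or lower where the Benjamini-Hochberg adjusted p over all 17138 genes was under 0.05. In pools of embryos, fewer cells with an RNA and less of it per cell cannot be told apart.

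Libraries held 2438473 to 11971840 reads assigned to genes, and 1 read was worth 0.563 to 2.82 scaled counts. Reads of the machinery genes were found for 81 to 88 of the 88 genes per library. The table as a whole had reads for 11970 to 15399 of its 21668 genes per library. Shares and medians given below for all genes thus include genes with few or no reads at the stages compared. The part of read depth in gaps between the machinery genes and all genes was not tested. Replicates were least alike at the 8-cell and 16-cell stages. The correlation of deposited values across genes was 0.861 and 0.879 between the second 8-cell library and its replicates and 0.91 between the other two, and it was 0.8545 to 0.8755 among the 16-cell libraries. limma array weights, a measure of how closely a library follows its group, were lowest for 8-cell replicate 2 at 0.304 and 16-cell replicate 1 at 0.31. The summed level of 8 oocyte markers lay between 66505 and 93829 in GV oocytes, between 4731 and 11744 at the 16-cell stage and between 78.4 and 176 in blastocysts. The sum of 6 trophectoderm markers lay between 21308 and 50036 in blastocysts and reached at most 1037 at the earlier stages. KRT8 made up 55.2% of the blastocyst sum. KRT8, KRT18, GATA2 and GATA3 had higher means in blastocysts than at the 8-cell stage. CDX2 and TFAP2A did not, with means of 144 and 32.0 in blastocysts and of 145 and 65.8 at the 8-cell stage. For 12 markers of cumulus and granulosa cells the sum lay between 2315 and 2682 in GV oocytes, with FOXL2 and TNFAIP6 at 0, and between 342 and 1300 in 16-cell embryos and blastocysts. STAR made up 65.3% of the GV sum, while FSHR and CYP19A1 of the same list had 94.6 and 74.8 scaled counts in GV replicate 3. Values of the other GV libraries are not given here for FSHR and CYP19A1. In blastocysts HSD3B1 made up 41.4% of the sum, and HSD3B1, CYP19A1 and FSHR were called higher than in 16-cell embryos. Of the 11 genes of this list that were tested, 3 were thus higher (18.2% of all genes were) and 4 were lower (13.1%). The part of these markers in the differences below was not tested.

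The machinery genes took a changing share of the reads of each library. It was 0.845% to 0.895% in GV oocytes, 0.825% to 0.911% in MII oocytes, 0.752% to 0.803% in 4-cell embryos, 0.906% to 0.956% at the 8-cell stage, 0.995% to 1.015% at the 16-cell stage and 0.543% to 0.608% in blastocysts. The share was thus lowest in blastocysts, highest in 16-cell embryos, and without overlap between either of these stages and the rest. Of the 88 genes, 69 differed between stages in the limma F test (78.4%), beside 67% of all genes tested. The median gap between the highest and the lowest stage mean was 2.25 for the machinery genes and 2.81 for all genes. The 16-cell stage was the highest for 33 of the 88 (37.5%, beside 18.8% of all genes) and the blastocyst for 10 (11.4%, beside 32.3%). The lowest mean fell in blastocysts for 27 (30.7%, beside 19.9%) and in 4-cell embryos for 22 (25%, beside 13.3%).

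**Figure D1:**
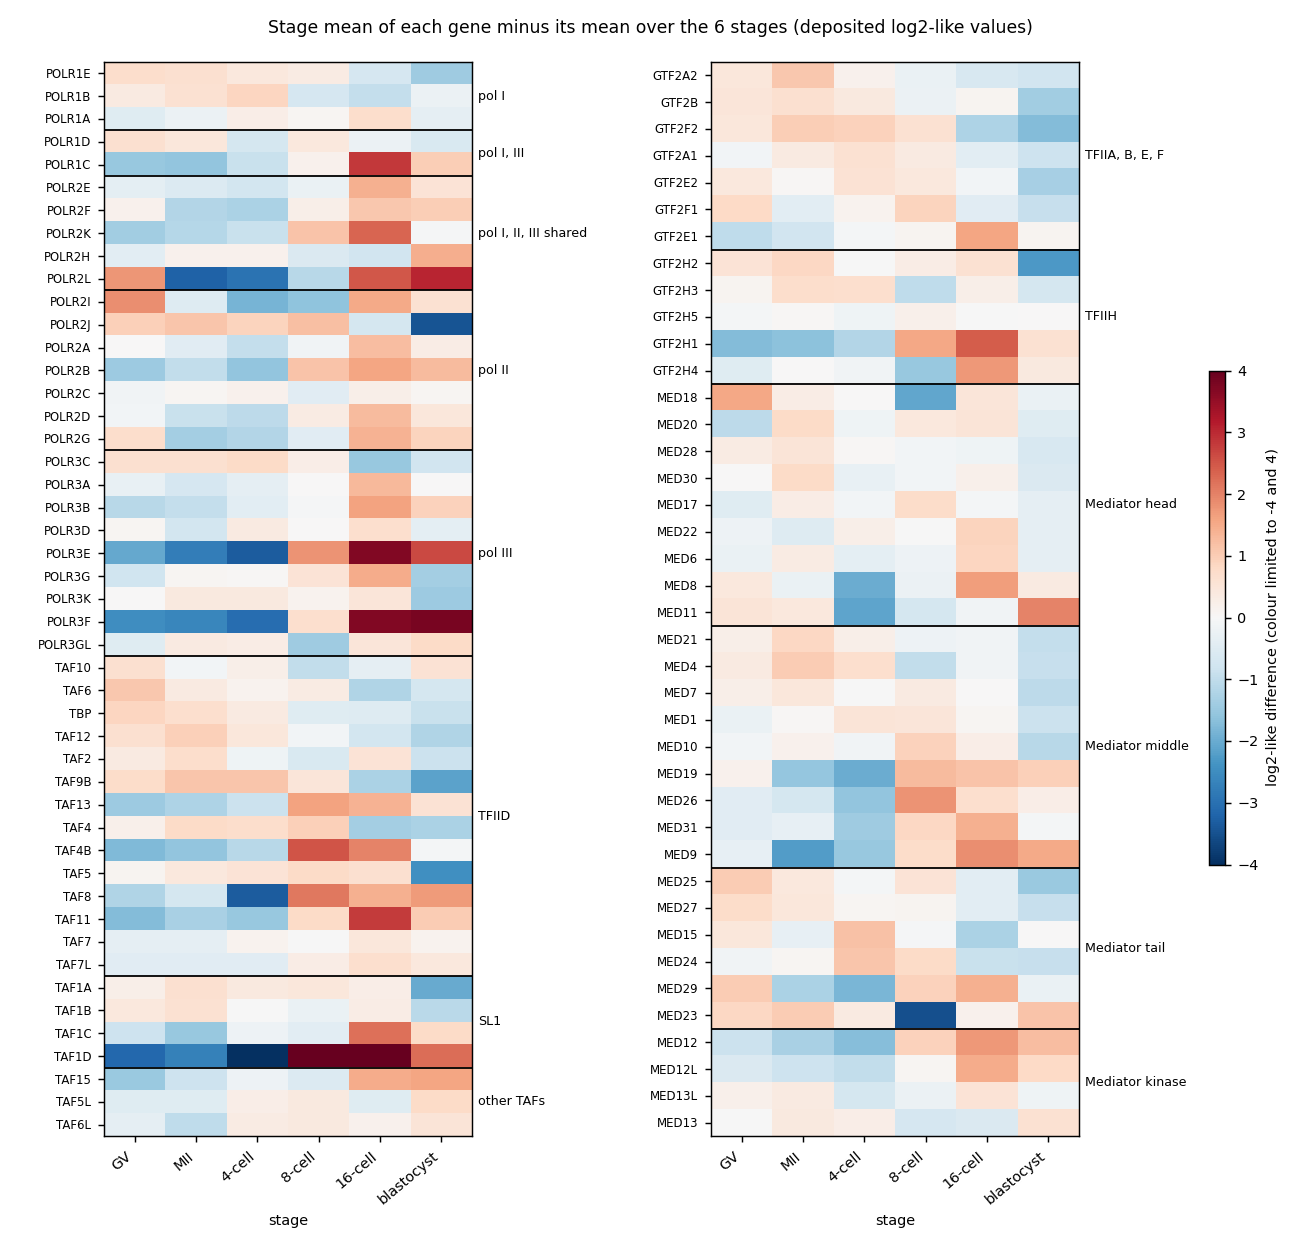
Each row is 1 of 87 genes and each column a stage, and the colour gives the stage mean of the deposited log2-like value (n = 3 pools) minus the gene's mean over the 6 stages, limited to -4 and 4. Genes are grouped by complex, and dark red cells of TAF1D, POLR3E and POLR3F begin at the 8-cell or 16-cell stage, while POLR2J is darkest blue in blastocysts.

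Few genes passed the test before the 8-cell stage. Between MII and GV oocytes, 0 genes were higher (0.0992% of all genes were) and 2 were lower (0.613%), with 3 and 9 genes at an unadjusted p under 0.05. The median difference was 0.16 for the machinery genes and 0 for all genes. Genes without reads at either stage of a comparison enter the latter median with a difference of 0, here and below. limma-voom with size factors on the recovered reads also gave 0 higher, with upper-quartile scaling 1 higher and 2 lower, and library medians set equal gave 1 and 1. In 4-cell embryos against MII oocytes, 0 genes were higher (0.0642%) by limma and by voom under both scalings, and 1 was lower (0.729%), with 2 and 10 at an unadjusted p under 0.05. The median difference there was -0.16, beside 0 for all genes.

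In 8-cell embryos against 4-cell embryos, 16 genes were higher (8.64% of all genes were) and 3 were lower (4.13% of all genes). The median difference was 0.21 for the machinery and 0 for all genes. The second 8-cell library was the lowest of its 3 for 11 of the 16 genes that rose, and for 60.9% of all genes that rose. Without this library, 5 genes were lower in place of 3. A fit of these 2 stages alone called 7 genes higher in place of 16. The share of all genes called was not counted for this or any other refit given here. Whether the machinery genes lost more calls than other genes is thus not known.

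In 16-cell embryos against 8-cell embryos, 20 genes were higher (14.8% of all genes were) and 8 lower (16.3%), with a median difference of 0.36 beside 0 for all genes. The second 8-cell library was the lowest of its 3 for 17 of the 20, and for 58.7% of all genes that rose. Without it, 11 machinery genes were called higher. A fit of these 2 stages alone called 1 gene higher, POLR2L, and 1 lower, TAF4. Without the third 16-cell library, 4 genes were lower in place of 8.

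In blastocysts against 16-cell embryos, 3 genes were higher (18.2% of all genes were) and 25 lower (13.1%). The median difference was -0.75 for the machinery genes, beside 0.19 for all genes. The first 16-cell library was the highest of its 3 for 16 of the 25, and for 49.7% of all genes that fell. Without it, 16 machinery genes were called lower. In blastocysts against GV oocytes, the ends of the course, 15 genes were higher (25.6%) and 24 lower (20.4%), with a median of -0.06 beside 0.26. Setting library medians equal changed the median difference of all genes to 0.32, 0.12, -0.24, -0.12, -0.17 and -0.02 in the order of the comparisons given here, and it gave 1 gene higher and 33 lower in blastocysts against 16-cell embryos. Over the 5 consecutive comparisons, 29 of the 88 genes were called in none (33%, beside 44.3% of all genes), 43 in 1 (48.9%, beside 37.3%), 13 in 2 (14.8%, beside 16.1%) and 3 in 3 (3.41%, beside 2.19%).

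**Figure D2:**
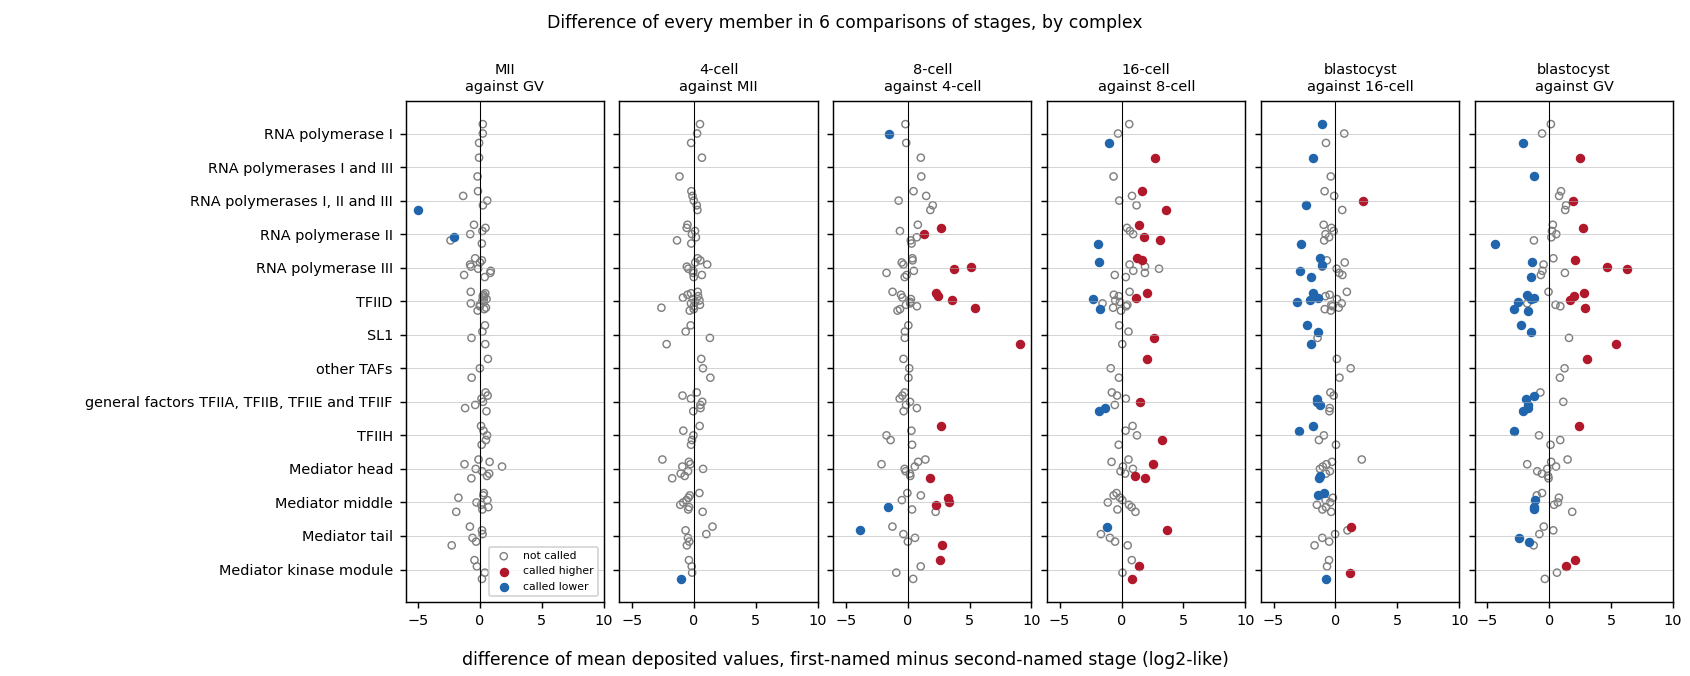
Each point is 1 of the 88 genes, placed by its difference of mean deposited values (log2-like, first-named minus second-named stage) and by complex, with filled red points called higher and filled blue points called lower by limma at adjusted p under 0.05. The 16 rises in 8-cell embryos are spread over 9 of the 14 groups, and blastocysts against 16-cell embryos show 25 blue and 3 red points.

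Among the 7 genes of RNA polymerase II proper, the second largest subunit changed most clearly. POLR2B, which forms the catalytic centre together with POLR2A, had 2887, 1676 and 3276 scaled counts in 8-cell libraries, against 392, 372 and 375 in 4-cell libraries. All 8-cell values lay above all 4-cell values, a rise of 2.71 ± 0.33 (adjusted p = 5.15e-06), or 6.88-fold. It stayed at 3460 ± 797 at the 16-cell stage and 2789 ± 707 in blastocysts (SD, n = 3), beside 413 ± 57.5 in GV oocytes, and the blastocyst exceeded the GV oocyte by 2.72 ± 0.33 (adjusted p = 9.62e-07).

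POLR2A, the largest subunit, whose tail is phosphorylated during transcription, took a different course. It had 459, 583 and 1290 scaled counts in 8-cell libraries, against 421, 204 and 713 in 4-cell libraries, which overlap. In 16-cell libraries it had 1584, 2030 and 1962, all above the 8-cell values (1.39 ± 0.44, adjusted p = 0.0207). That call ended without 8-cell replicate 1 or 2 or 16-cell replicate 2 or 3, with adjusted p up to 0.103. In blastocysts POLR2A had 543, 1159 and 1382, all below the 16-cell values, but the difference of -0.95 ± 0.44 did not pass (adjusted p = 0.111).

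POLR2J, a small subunit of the assembly core, fell late and by the most. It averaged 4481 ± 933, 5369 ± 2458, 4364 ± 998 and 5879 ± 3076 scaled counts in GV oocytes, MII oocytes, 4-cell and 8-cell embryos. It then had 2022, 2222 and 640 in 16-cell libraries, all below the 8-cell values of 9132, 5489 and 3016 (-1.90 ± 0.52, adjusted p = 0.00876, up to 0.0666 without 8-cell replicate 1 or 16-cell replicate 3). Blastocysts had 165, 482 and 109, again below every 16-cell library (-2.76 ± 0.52, adjusted p = 0.000382). Against GV oocytes the blastocyst difference was -4.39 ± 0.52 (adjusted p = 8.42e-07), the lowest of the 88 genes in that comparison. Human POLR2J has near-identical copies, and whether the bovine row shares reads with any was not tested.

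3 further subunits of polymerase II had low levels in the middle of the course. POLR2G, which forms the stalk of the enzyme with POLR2D, had 159, 169 and 203 scaled counts in MII oocytes, against 1313, 500 and 643 in GV oocytes (-2.07 ± 0.44, adjusted p = 0.0255). That fall kept its call without GV replicate 2 and lost it without any other of the 6 libraries, with adjusted p up to 0.229. In 16-cell libraries POLR2G had 2053, 1251 and 676, against 296, 278 and 454 in 8-cell libraries, which do not overlap (1.83 ± 0.44, adjusted p = 0.00339). POLR2I, which acts in start-site choice and proofreading in yeast, had 74.2, 203 and 154 in 16-cell libraries, against 19.2, 0.764 and 38.1 in 8-cell libraries (3.13 ± 0.78, adjusted p = 0.00453). Its GV level of 180 ± 82.9 was above its MII level of 30.3 ± 9.78 in every library, with a difference of -2.37 ± 0.78 in MII against GV oocytes that did not pass (adjusted p = 0.238). POLR2D rose by 1.36 ± 0.36 in 8-cell against 4-cell embryos (adjusted p = 0.0141, up to 0.0643 without 4-cell replicate 1 or 8-cell replicate 1 or 3), and POLR2C was called in no comparison.

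**Figure D3:**
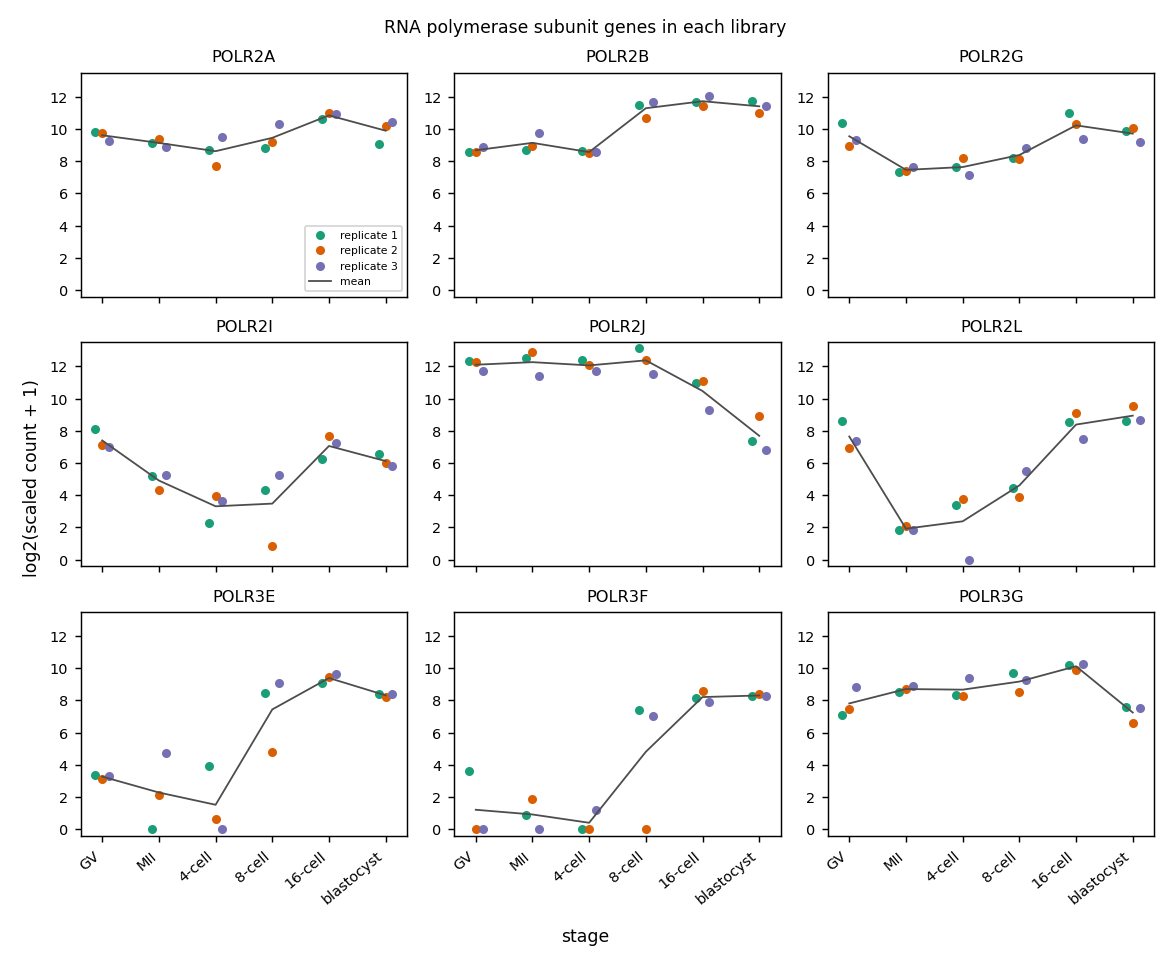
Panels show 9 polymerase subunit genes, with log2(scaled count + 1) on the vertical axis and the 6 stages on the horizontal axis; each point is 1 library and the line joins the stage means. POLR2B lies between 372 and 392 scaled counts in 4-cell libraries and between 1676 and 3276 in 8-cell libraries, while POLR2L drops to 2.56 to 3.29 in MII oocytes.

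Of the 5 subunits shared by all 3 polymerases, POLR2L stood out. It had 2.56, 3.29 and 2.57 scaled counts in MII oocytes, against 390, 124 and 164 in GV oocytes. The MII libraries lay far below every GV library, and the difference of -5.00 ± 0.75 was the lowest of the 17138 genes in that comparison (adjusted p = 0.00237). It held without any 1 library and missed the threshold in a fit of the 2 oocyte stages alone (adjusted p = 0.0581). POLR2L then had 9.56, 12.4 and 0 in 4-cell libraries and 20.7, 13.7 and 44.6 in 8-cell libraries. In 16-cell libraries it had 381, 551 and 178, all above the 8-cell values (3.61 ± 0.75, adjusted p = 0.00117), and blastocysts had 389, 758 and 404. The blastocyst level overlapped that of GV oocytes (1.28 ± 0.75, adjusted p = 0.174).

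Of the other shared subunits, POLR2H and POLR2K were called in blastocysts against 16-cell embryos. POLR2H had 834, 570 and 480 scaled counts in blastocysts, against 352, 110 and 55.7 in 16-cell embryos (2.19 ± 0.59, adjusted p = 0.00653), the largest rise of any of the 88 genes at that step. POLR2K had 11.3, 13.1 and 18.4 in blastocysts, against 140, 73.4 and 68.7 in 16-cell embryos (-2.37 ± 0.77, adjusted p = 0.0231, up to 0.0754 without 16-cell replicate 1 or blastocyst replicate 1 or 2). So a pair of subunits that serve the same enzymes changed in opposite directions at that step, each without overlap between the stages. POLR2E rose by 1.69 ± 0.52 in 16-cell against 8-cell embryos (adjusted p = 0.0172, up to 0.0866 without 8-cell replicate 2 or 16-cell replicate 2). POLR2F was called in no comparison.

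RNA polymerase I was represented among the 88 by 3 genes. None was called higher in any comparison, beside 0.0642% to 25.6% of all genes, and 3 genes are too few to read this as a trait of the enzyme. POLR1B, its second largest subunit, had 361, 540 and 537 scaled counts in 8-cell libraries, against 1323, 1142 and 1686 in 4-cell libraries. The stages do not overlap, and the difference of -1.53 ± 0.31 (adjusted p = 0.00174) held without any 1 library. POLR1A, the largest subunit, had 310, 393 and 659 in blastocysts, against 784, 968 and 967 in 16-cell embryos (-1.06 ± 0.37, adjusted p = 0.0342), and leaving out 16-cell replicate 2 or 3 or blastocyst replicate 1 or 2 ended that call (adjusted p up to 0.142). POLR1E, a peripheral subunit, was at 436 ± 27.8 in blastocysts and 1948 ± 314 in GV oocytes (SD, n = 3), a difference of -2.14 ± 0.30 (adjusted p = 7.43e-06). Further subunits stand in the table under older names and so lie outside the 88. TWISTNB, which encodes POLR1F, had 29.9, 279 and 89.2 in 8-cell libraries, against 12.4, 0 and 0 in 4-cell libraries (4.52 ± 0.93, adjusted p = 0.00188). ZNRD1, which encodes POLR1H, had 776, 601 and 926 in 16-cell libraries, against 186, 470 and 157 in 8-cell libraries (1.64 ± 0.41, adjusted p = 0.00436), and it was lower again in blastocysts (-1.53 ± 0.41 against 16-cell embryos, adjusted p = 0.00632). CD3EAP, a further such subunit, was called in no comparison.

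POLR1C and POLR1D form the assembly platform that polymerases I and III share, and their courses differed. POLR1C had 674, 977 and 436 scaled counts in 16-cell libraries, against 111, 37.4 and 234 in 8-cell libraries (2.67 ± 0.67, adjusted p = 0.00447). Its blastocyst level of 191 ± 79.4 was below the 16-cell level of 696 ± 271 (-1.84 ± 0.67, adjusted p = 0.0397, up to 0.130 without 16-cell replicate 1 or 2 or blastocyst replicate 1 or 3) and above the GV level of 34.9 ± 27.4 (2.49 ± 0.67, adjusted p = 0.0042). POLR1D was instead lower in blastocysts, with 397, 510 and 326, against 958, 950 and 1024 in GV oocytes (-1.26 ± 0.37, adjusted p = 0.0087).

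RNA polymerase III held 10 genes, of which 8 differed between stages in the F test, beside 67% of all genes. POLR3E and POLR3F, peripheral subunits that act in initiation, had few reads before the 8-cell stage. POLR3E had 352, 26.7 and 535 scaled counts in 8-cell libraries, against 14.1, 0.564 and 0 in 4-cell libraries (5.13 ± 1.00, adjusted p = 0.00122). The stages do not overlap, although the second 8-cell library was far below the others. POLR3F had 168, 0 and 130 in 8-cell libraries, against 0, 0 and 1.31 in 4-cell libraries. That call (3.73 ± 1.21, adjusted p = 0.0456) rests on libraries that overlap. It held without 8-cell replicate 2 and was lost without any of the other 5 (adjusted p up to 0.215). It was also lost with voom under upper-quartile scaling, on the log2(scaled reads + 1) scale, without a filter and with the 2 stages alone (up to 0.323). From the 16-cell stage on POLR3F had reads in all 6 libraries, with 283, 381 and 238 at the 16-cell stage and 310, 332 and 306 in blastocysts. Blastocysts exceeded GV oocytes, which had 11.4, 0 and 0, by 6.28 ± 1.21 (adjusted p = 0.000231), the largest rise of the 88 genes in that comparison.

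Both large subunits of polymerase III rose in 16-cell embryos. POLR3A had 1611, 1468 and 1579 scaled counts in 16-cell libraries, against 508, 499 and 996 in 8-cell libraries (1.29 ± 0.32, adjusted p = 0.00483). POLR3B had 983, 1064 and 1437 in 16-cell libraries, against 404, 213 and 547 in 8-cell libraries (1.65 ± 0.42, adjusted p = 0.0054). Both sets of libraries are free of overlap. In blastocysts POLR3A had 498, 630 and 832, below every 16-cell library (-1.27 ± 0.32, adjusted p = 0.00459). POLR3B had 514, 743 and 926 there, also below them, with a difference that did not pass (-0.69 ± 0.42, adjusted p = 0.233). POLR3C, which works with POLR3F and the POLR3G position in a subcomplex, had 260, 347 and 226 in 16-cell libraries, against 828, 1477 and 739 in 8-cell libraries (-1.81 ± 0.32, adjusted p = 0.000294).

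POLR3G and POLR3GL encode alternative versions of the same subunit, POLR3G being known from embryonic stem cells and POLR3GL from differentiated cells. POLR3G had 189, 97.5 and 187 scaled counts in blastocysts, against 1164, 954 and 1245 in 16-cell embryos. This difference of -2.85 ± 0.45 (adjusted p = 6.01e-05), or 7.10-fold lower, was the lowest of polymerase III at that step and held without any 1 library. POLR3GL stayed at means of 0.475 to 16.8 in all stages, with libraries at 0 reads in 3 of the 6, and was called in no comparison. POLR3K also fell, with 818, 698 and 879 in blastocysts, against 2760, 3687 and 2803 in 16-cell embryos (-1.94 ± 0.27, adjusted p = 1.38e-05). POLR3D had 460 ± 48.1 in blastocysts and 1020 ± 384 in 16-cell embryos (SD, n = 3), and was called lower (adjusted p = 0.0283). That call ended without 16-cell replicate 1 or 2 or blastocyst replicate 1 or 3 (up to 0.118). With POLR3A, 4 of the 10 genes were thus lower at that step (13.1% of all genes were) and 0 higher (18.2%).

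In TFIID, the promoter-recognition complex of polymerase II, 4 of 14 genes rose in 8-cell against 4-cell embryos (8.64% of all genes did), and 0 fell (4.13%). TAF4B, a paralog of TAF4 needed for fertility in mice, had 3379, 3863 and 3681 scaled counts in 8-cell libraries, against 283, 327 and 279 in 4-cell libraries. The replicates lay close together, and the rise of 3.60 ± 0.30, or 12.3-fold, held in every setting tried (adjusted p = 4.71e-08). It had 2157, 2869 and 2674 in 16-cell libraries and 585, 696 and 559 in blastocysts, the last below the 16-cell level (-2.05 ± 0.30, adjusted p = 2.86e-05) and above the GV libraries of 133, 279 and 170 (1.70 ± 0.30, adjusted p = 0.000111).

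TAF4 itself, the scaffold subunit that TAF4B can replace, was not called at that step. TAF4 had 1273, 2053 and 1575 scaled counts in 8-cell libraries, against 1561, 1127 and 1353 in 4-cell libraries, which overlap. In 16-cell libraries it had 271, 426 and 275, all below the 8-cell values, a difference of -2.32 ± 0.35 (adjusted p = 6.2e-05) that held in every setting tried. It remained at 291, 550 and 254 in blastocysts. Thus, of this pair, TAF4B was 12.3-fold higher in 8-cell than in 4-cell embryos and TAF4 was 5.04-fold lower in 16-cell than in 8-cell embryos.

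The other TFIID genes that rose with TAF4B were TAF8, TAF13 and TAF11. TAF8, which joins TAF2 and TAF10 in a building block of TFIID, had 486, 236 and 318 scaled counts in 8-cell libraries, against 6.19, 6.21 and 1.31 in 4-cell libraries (5.44 ± 0.75, adjusted p = 2.5e-05). It had been at 45.5 ± 18.7 in MII oocytes, above every 4-cell library, with a difference of -2.61 ± 0.75 in 4-cell embryos against MII oocytes that did not pass (adjusted p = 0.145). TAF11 and TAF13 pair with each other through histone folds. TAF13 had 187, 926 and 413 in 8-cell libraries, against 46.7, 96.5 and 81 in 4-cell libraries (2.47 ± 0.60, adjusted p = 0.00744). TAF11 had 1185, 181 and 812 in 8-cell libraries, against 121, 157 and 69.2 in 4-cell libraries (2.31 ± 0.58, adjusted p = 0.00943). It was called in 3 consecutive comparisons, rising again to 2606 ± 1673 in 16-cell embryos (2.02 ± 0.58, adjusted p = 0.0112) and falling to 685 ± 218 in blastocysts (-1.78 ± 0.58, adjusted p = 0.0219). Each of these TAF11 calls depended on single libraries. The first ended without 4-cell replicate 3 or 8-cell replicate 1 or 3 (adjusted p up to 0.0677), the next without 8-cell replicate 2 or 16-cell replicate 1 (up to 0.0883), and the last without 16-cell replicate 1 or blastocyst replicate 2 or 3 (up to 0.124).

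**Figure D4:**
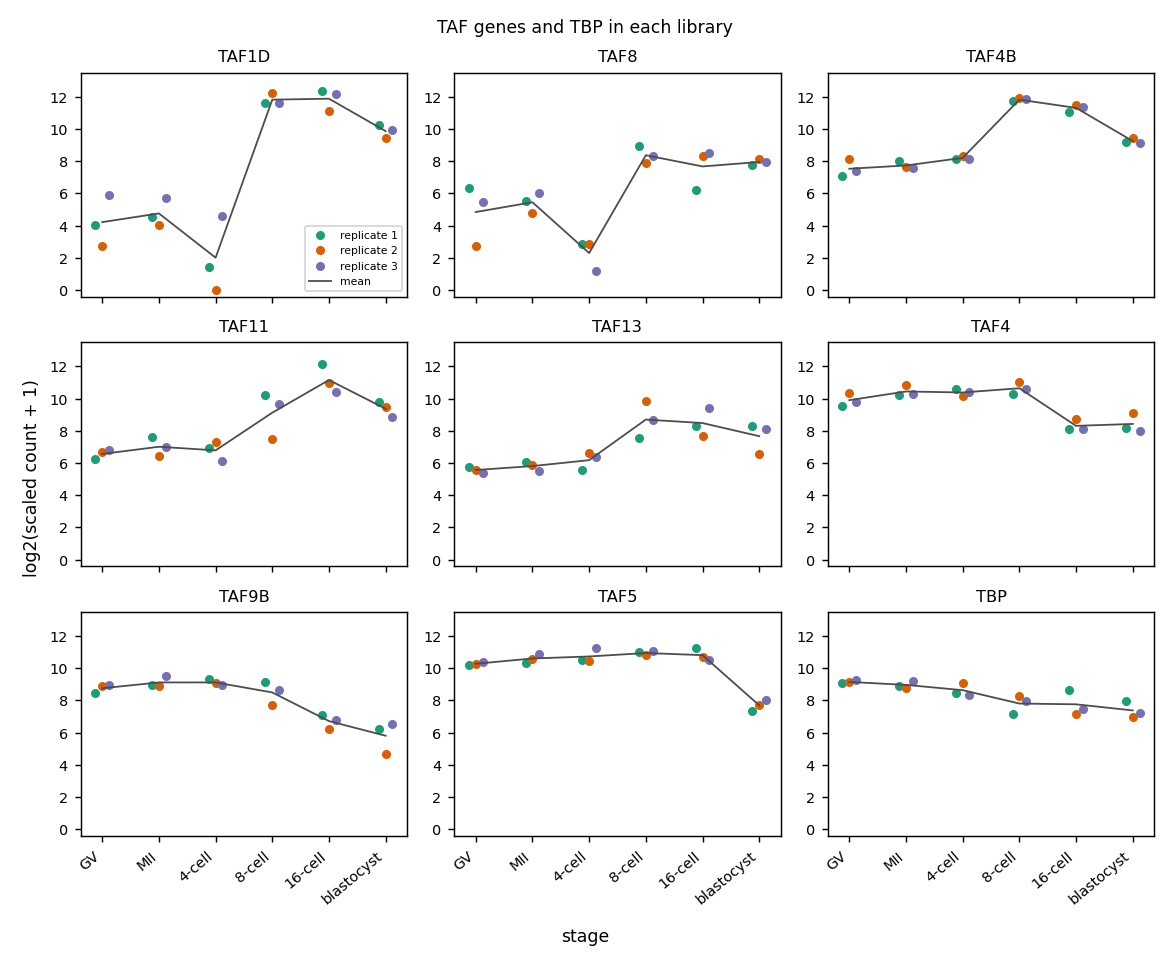
Panels show TBP and 8 TAF genes, with log2(scaled count + 1) on the vertical axis and the 6 stages on the horizontal axis; each point is 1 library and the line joins the stage means. TAF1D, TAF8 and TAF4B jump between the 4-cell and 8-cell stages, TAF4 falls in 16-cell embryos and TAF5 falls to 161 to 255 scaled counts in blastocysts.

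TBP had its highest mean in GV oocytes and its lowest in blastocysts. It had 478, 439 and 592 scaled counts in MII oocytes, 349, 549 and 326 in 4-cell libraries, 143, 315 and 247 in 8-cell libraries and 407, 141 and 174 in 16-cell libraries. None of the steps between neighbouring stages passed the test, with differences of -0.82 ± 0.43 in 8-cell against 4-cell embryos (adjusted p = 0.248) and -0.05 ± 0.43 in 16-cell against 8-cell embryos (adjusted p = 0.988). Over the whole course TBP had 252, 124 and 145 in blastocysts, against 538, 558 and 605 in GV oocytes, a difference of -1.75 ± 0.43 (adjusted p = 0.00216) that held without any 1 library.

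TAF5 and TAF2 fell in blastocysts. TAF5, which carries WD40 repeats and organises the core of TFIID, averaged 1242 ± 71.7, 1577 ± 310, 1752 ± 563, 1975 ± 172 and 1845 ± 534 scaled counts from GV oocytes to 16-cell embryos. In blastocysts it had 161, 214 and 255, against 2452, 1640 and 1444 in 16-cell libraries. This difference of -3.10 ± 0.30 (adjusted p = 1.13e-07), or 8.79-fold lower, was the lowest of the 88 genes at that step. TAF2, which contacts initiator DNA, had 904, 754 and 1059 in blastocysts, against 2593, 2109 and 2442 in 16-cell libraries (-1.40 ± 0.29, adjusted p = 0.000807). It had risen in 16-cell against 8-cell embryos, where the 8-cell libraries had 937, 964 and 1356 (1.15 ± 0.29, adjusted p = 0.00475).

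TAF9B, a paralog of TAF9, fell earlier. It had 138, 73.4 and 111 scaled counts in 16-cell libraries, against 562, 211 and 392 in 8-cell libraries (-1.75 ± 0.46, adjusted p = 0.00697). Blastocysts had 73.3, 24.1 and 92.9, against 354, 466 and 487 in GV oocytes (-2.87 ± 0.46, adjusted p = 3.67e-05). TAF12 was also lower in blastocysts than in GV oocytes (-1.83 ± 0.55, adjusted p = 0.00929), and TAF6, TAF7 and TAF10 were called in no comparison. TAF7L, a relative of TAF7 known from testis and fat cells in mice, had at most 3 reads in any library and gives no basis for a comparison. TAF3, TAF9 and TAF1L were not analysed here.

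SL1, the selectivity factor of polymerase I, held the gene with the largest rise of all 88. TAF1D had 3147, 4853 and 3139 scaled counts in 8-cell libraries, against 1.69, 0 and 23.5 in 4-cell libraries. Every 8-cell library exceeded every earlier library by a wide margin, and the rise of 9.09 ± 0.74 (adjusted p = 3.63e-08) held in every setting tried. No fold is given, since the third 4-cell library holds most of the 4-cell reads. TAF1D stayed at 5229, 2273 and 4573 in 16-cell libraries and had 1198, 696 and 984 in blastocysts. The last step passed narrowly (-2.01 ± 0.74, adjusted p = 0.0442) and lost its call when any library other than 16-cell replicate 2 was left out (up to 0.148). Blastocysts exceeded GV oocytes, at 15.2, 5.65 and 59.4, by 5.38 ± 0.74 (adjusted p = 5.64e-06).

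The partners of TAF1D were not called with it. TAF1A had 858, 480 and 1021 scaled counts in 8-cell libraries, against 680, 763 and 720 in 4-cell libraries, and TAF1B had 486, 299 and 589 in 8-cell libraries, against 569, 408 and 590 in 4-cell libraries. The stages overlap for both genes. In blastocysts TAF1A had 120, 125 and 149, against 951, 381 and 789 in 16-cell libraries (-2.30 ± 0.36, adjusted p = 5.11e-05), and TAF1B fell by 1.37 ± 0.36 (adjusted p = 0.0058). The median difference of the 4 SL1 genes at that step was -1.73, beside 0.19 for all genes, with 3 called lower (13.1% of all genes were). TAF1C rose in 16-cell against 8-cell embryos (2.63 ± 0.91, adjusted p = 0.0319), which ended without 8-cell replicate 2 or 16-cell replicate 1 or 2 (up to 0.200).

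The remaining TAFs are not core subunits of TFIID. TAF15, an RNA-binding protein of the FET family, had 251, 299 and 750 scaled counts in blastocysts, against 52.1, 26.1 and 54.3 in GV oocytes (3.07 ± 0.70, adjusted p = 0.00117). It had passed in 16-cell against 8-cell embryos (2.03 ± 0.70, adjusted p = 0.0316, up to 0.218 without 8-cell replicate 2 or 16-cell replicate 2 or 3). TAF6L, a subunit of the SAGA coactivator, had means of 11.0 to 66.2 and was called in no comparison. The row named TAF5L, of the same complex, had reads in 4 libraries and at most 11 of them, and a second row matched to this gene stands under a locus number.

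Of the factors that assemble with polymerase II, none of the 7 genes of TFIIA, TFIIB, TFIIE and TFIIF was called in 8-cell against 4-cell embryos. At that step 8.64% of all genes were higher and 4.13% lower. In blastocysts against GV oocytes, 5 of the 7 were lower (20.4% of all genes were) and 0 higher (25.6%). The median difference over that whole course was -1.71, beside 0.26 for all genes. GTF2B, which encodes TFIIB, the bridge between TBP and the polymerase, had 928, 664 and 655 scaled counts in blastocysts, against 2667, 1530 and 2181 in 16-cell libraries. The stages do not overlap, and the difference of -1.48 ± 0.30 (adjusted p = 0.000745) held in every setting tried. From GV oocytes to 8-cell embryos GTF2B had averaged 2737 ± 234, 2986 ± 158, 2609 ± 743 and 1707 ± 612.

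Both subunits of TFIIF, which delivers the polymerase to the promoter, were lower in 16-cell than in 8-cell embryos. GTF2F2 had 1047, 350 and 277 scaled counts in 16-cell libraries, against 2198, 1580 and 1375 in 8-cell libraries (-1.84 ± 0.37, adjusted p = 0.00081). GTF2F1 had 574, 359 and 189 in 16-cell libraries, against 856, 997 and 769 in 8-cell libraries (-1.35 ± 0.39, adjusted p = 0.0126, 0.0788 without 16-cell replicate 3). The stages are separate for both genes. TFIIE, which recruits TFIIH, showed unequal courses. GTF2E2 had 779, 622 and 467 in blastocysts, against 1779, 1271 and 1327 in 16-cell libraries (-1.24 ± 0.31, adjusted p = 0.00429). GTF2E1 was highest in 16-cell embryos at 718 ± 199, against 284 ± 158 in 8-cell embryos (1.45 ± 0.50, adjusted p = 0.0312), and had 253 ± 14.2 in blastocysts (-1.45 ± 0.50 against 16-cell embryos, adjusted p = 0.0304). Without 8-cell replicate 1 or 2 or 16-cell replicate 1 or 3 the rise was lost (up to 0.164), and the fall was lost when any library other than 16-cell replicate 2 was left out (up to 0.0915).

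TFIIA, which steadies TBP on DNA, differed between the ends of the course in 1 of its 2 genes. GTF2A2 had 1285, 845 and 922 scaled counts in blastocysts, against 1980, 2158 and 2932 in GV oocytes (-1.21 ± 0.27, adjusted p = 0.000806). GTF2A1 differed between stages in the F test, with its highest mean of 1304 ± 295 in 4-cell embryos and its lowest of 478 ± 55.7 in blastocysts, and was called in none of the 6 comparisons. GTF2A1L was not analysed here.

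TFIIH opens promoter DNA and also works in DNA repair, and its 5 genes split. GTF2H1 had 804, 765 and 1541 scaled counts in 8-cell libraries, against 142, 152 and 144 in 4-cell libraries. The rise of 2.72 ± 0.42 (adjusted p = 9.36e-05), or 7.10-fold, and the later difference of -1.82 ± 0.42 in blastocysts against 16-cell embryos (adjusted p = 0.00198) both held in every setting tried. GTF2H2 had stage means of 1210 to 2106 up to the 16-cell stage. It had 503, 101 and 249 in blastocysts, against 2882, 1064 and 1923 in 16-cell libraries (-2.93 ± 0.43, adjusted p = 2.89e-05). Human GTF2H2 lies in a duplicated region, and whether the bovine row shares reads with a copy was not tested. GTF2H4 passed in 16-cell against 8-cell embryos (3.25 ± 1.00, adjusted p = 0.0177), although its 16-cell libraries of 30.3, 251 and 238 overlap the 8-cell libraries of 6.42, 0.764 and 59.1, and the call ended without 8-cell replicate 1 or 2 or 16-cell replicate 2 or 3 (up to 0.102). GTF2H3 and GTF2H5 were called in no comparison.

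Mediator genes moved in both directions. In 8-cell against 4-cell embryos 6 of its 28 genes rose (8.64% of all genes did) and 2 fell (4.13%). The middle module, which links head and tail, held 3 of the rises and had a median difference of 1.06, beside 0 for all genes. MED26, through which Mediator meets elongation factors, had 935, 916 and 545 scaled counts in 8-cell libraries, against 144, 62.1 and 40.5 in 4-cell libraries (3.36 ± 0.53, adjusted p = 0.000142). MED19 had 304, 228 and 261 in 8-cell libraries, against 10.7, 36.1 and 32.6 in 4-cell libraries (3.26 ± 0.55, adjusted p = 0.000264). Both sets of libraries are separate, and both rises held in every setting tried. In GV oocytes MED19 had been at 127 ± 52.7 (SD, n = 3). MED31 rose by 2.25 ± 0.57 (adjusted p = 0.0102) with overlapping libraries, and the call ended without 4-cell replicate 1 or 8-cell replicate 3 (up to 0.0888).

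MED4, of the same module, went the other way. It had 420, 299 and 244 scaled counts in 8-cell libraries, against 1125, 955 and 863 in 4-cell libraries, a difference of -1.63 ± 0.35 (adjusted p = 0.00285). In blastocysts against 16-cell embryos MED1 and MED10 fell. MED1, the subunit that binds nuclear receptors, had 1544, 1281 and 1437 in blastocysts, against 2804, 3498 and 2051 in 16-cell libraries (-0.94 ± 0.25, adjusted p = 0.00609). The MED10 difference of -1.40 ± 0.45 (adjusted p = 0.0226) ended without 16-cell replicate 1 or blastocyst replicate 2 or 3 (up to 0.132). MED4, MED7 and MED21 were lower in blastocysts than in GV oocytes, MED7 without a call when GV replicate 3 or blastocyst replicate 2 was left out (up to 0.131) and MED21 when blastocyst replicate 3 was (0.0764).

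**Figure D5:**
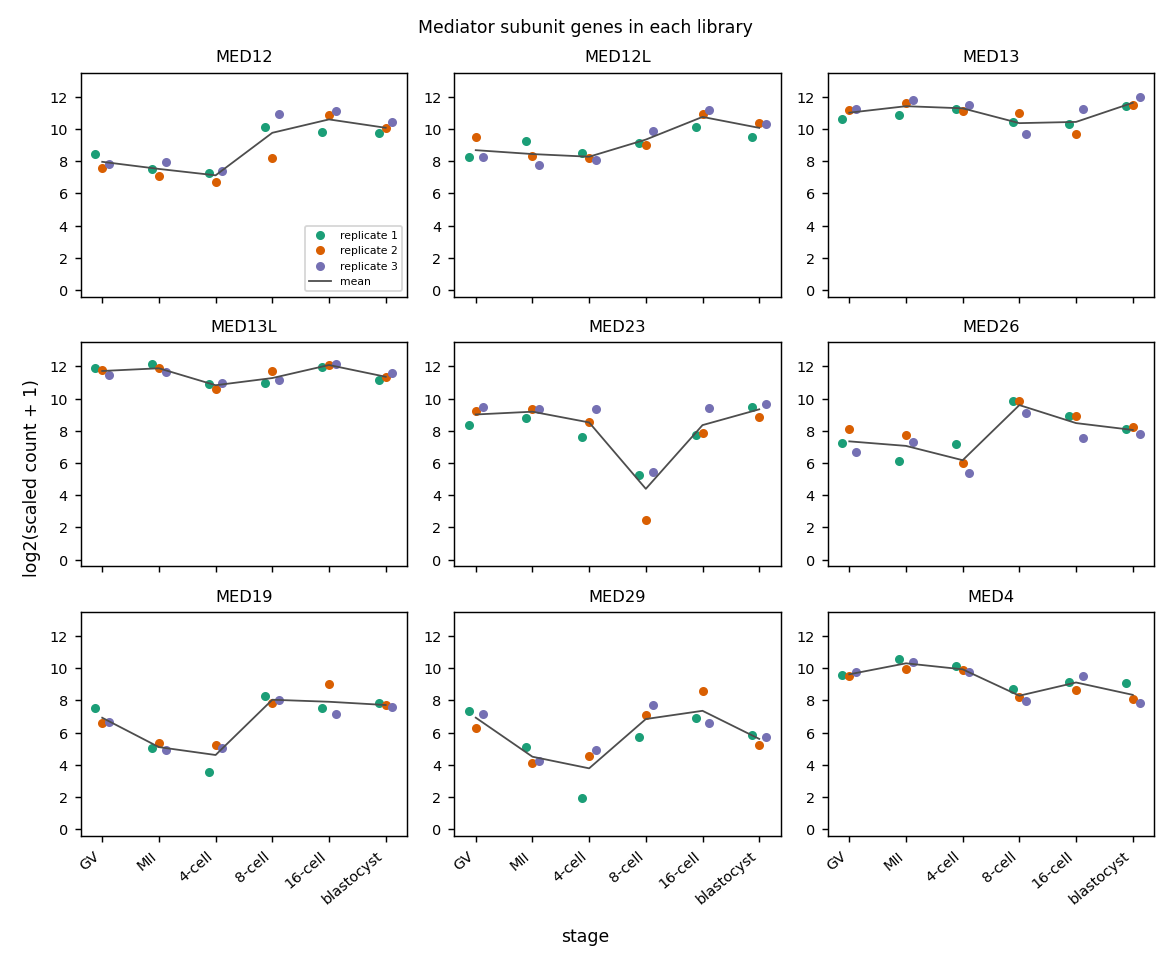
Panels show 9 Mediator genes, with log2(scaled count + 1) on the vertical axis and the 6 stages on the horizontal axis; each point is 1 library and the line joins the stage means. MED23 dips to 4.58 to 43.3 scaled counts in 8-cell libraries and returns to 212 to 692 in 16-cell libraries, while MED12, MED19, MED26 and MED29 rise at the 8-cell stage.

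The tail module, which receives signals from activators, held the deepest dip among the Mediator genes. MED23, which binds the signal-dependent factor ELK1, had 37.1, 4.58 and 43.3 scaled counts in 8-cell libraries, against 197, 381 and 656 in 4-cell libraries. All 8-cell libraries lay below those of every other stage, and the difference was -3.87 ± 0.60 (adjusted p = 0.000108), or 14.5-fold. In 16-cell libraries MED23 had 212, 237 and 692, a rise of 3.71 ± 0.60 over the 8-cell stage (adjusted p = 0.00013), and it had 713, 470 and 804 in blastocysts. Both steps held without any 1 library, and both missed the threshold when only the 2 stages concerned were fitted. MED29 had 52.8, 133 and 210 in 8-cell libraries, against 2.81, 22 and 28.7 in 4-cell libraries (2.75 ± 0.73, adjusted p = 0.0138, up to 0.103 without 4-cell replicate 1 or 8-cell replicate 3). In GV oocytes it had been at 127 ± 43.5 (SD, n = 3).

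MED15, the tail subunit that binds SREBP and SMAD factors, had 215, 393 and 235 scaled counts in blastocysts, against 92.1, 167 and 85.4 in 16-cell libraries (1.27 ± 0.44, adjusted p = 0.0326). It had been lower in 16-cell than in 8-cell embryos (-1.20 ± 0.44, adjusted p = 0.0442). The rise ended without 16-cell replicate 1 or 3 or blastocyst replicate 2 (up to 0.137), the fall without 8-cell replicate 2 or 3 or 16-cell replicate 1 or 3 (up to 0.157), and voom on the recovered reads called neither. MED27 averaged 605 ± 132, 485 ± 57.8, 374 ± 19.8, 395 ± 134, 266 ± 57.5 and 186 ± 44.6 scaled counts over the 6 stages from GV oocytes to blastocysts (SD, n = 3). Blastocysts differed from GV oocytes by -1.68 ± 0.35 (adjusted p = 0.000539). MED25 was lower in blastocysts than in GV oocytes (-2.47 ± 0.82, adjusted p = 0.0179, up to 0.161 without GV replicate 1 or 2 or blastocyst replicate 1), and MED24 was called in no comparison.

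In the head module, which touches the polymerase, 5 of 9 genes differed between stages in the F test, beside 67% of all genes, and its median gap between stage means of 1.42 was the smallest of the 14 groups. MED17, its scaffold, had 1024, 903 and 1134 scaled counts in 8-cell libraries, against 472, 718 and 530 in 4-cell libraries. These do not overlap, yet the difference of 0.84 ± 0.35 did not pass (adjusted p = 0.128), and MED17 was called in no comparison. MED8 had 227, 153 and 413 in 8-cell libraries, against 55.1, 67.2 and 86.2 in 4-cell libraries (1.77 ± 0.44, adjusted p = 0.00839, 0.059 without 8-cell replicate 3). In GV oocytes it had been at 397 ± 112 (SD, n = 3). In 16-cell libraries it had 1403, 1115 and 501 (1.91 ± 0.44 over the 8-cell stage, adjusted p = 0.00236), and in blastocysts 443, 362 and 318 (-1.31 ± 0.44, adjusted p = 0.0257, up to 0.118 without 16-cell replicate 1 or 2 or blastocyst replicate 2 or 3). MED6 rose by 1.06 ± 0.35 in 16-cell against 8-cell embryos (adjusted p = 0.0241, up to 0.129 without 8-cell replicate 1 or 2 or 16-cell replicate 1) and fell by 1.23 ± 0.35 in blastocysts (adjusted p = 0.00953, 0.0655 without 16-cell replicate 1). MED18 rose by 2.56 ± 0.92 in 16-cell embryos (adjusted p = 0.0401), a call that ended without 8-cell replicate 2 or any 16-cell library (up to 0.298). MED20 had 652, 349 and 406 in MII oocytes, against 172, 176 and 68.2 in GV oocytes, the highest difference of the 88 genes at that step (1.79 ± 0.45), and did not pass (adjusted p = 0.0743). MED11 had 0 reads in every 4-cell library and was called in no comparison, nor were MED22, MED28 and MED30.

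The kinase module binds Mediator reversibly through MED13 or MED13L and is completed by MED12 or MED12L with CDK8 or CDK19 and cyclin C. MED12 had 1144, 297 and 1948 scaled counts in 8-cell libraries, against 155, 102 and 170 in 4-cell libraries (2.61 ± 0.52, adjusted p = 0.0014). The stages are separate, with the second 8-cell library again the lowest, and MED12 kept a mean of 1667 ± 690 at the 16-cell stage and 1102 ± 259 in blastocysts. Its paralog MED12L had 1140, 1923 and 2357 in 16-cell libraries, against 566, 518 and 938 in 8-cell libraries (1.40 ± 0.43, adjusted p = 0.0169, up to 0.0723 without 8-cell replicate 1 or 2 or 16-cell replicate 3). Blastocysts exceeded GV oocytes in MED12 by 2.10 ± 0.52 (adjusted p = 0.00231) and in MED12L by 1.38 ± 0.43 (adjusted p = 0.0122), where the MED12L libraries overlap and the call ended without GV replicate 1 or 3 or blastocyst replicate 2 (up to 0.0598).

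MED13L was called in 3 of the 5 comparisons of neighbouring stages, with differences of at most 1.05 in size. It had 1940, 1531 and 2045 scaled counts in 4-cell libraries, against 4471, 3812 and 3183 in MII oocytes (-1.05 ± 0.25, adjusted p = 0.0475), and leaving out any of these 6 libraries ended the call (up to 0.251). It had 4080, 4385 and 4623 in 16-cell libraries, against 2030, 3373 and 2242 in 8-cell libraries (0.81 ± 0.25, adjusted p = 0.0171, 0.0823 without 8-cell replicate 1). Blastocysts had 2265, 2641 and 3026 (-0.73 ± 0.25 against 16-cell embryos, adjusted p = 0.0288, up to 0.0993 without 16-cell replicate 2 or 3 or blastocyst replicate 1 or 2). Its paralog MED13 rose at that last step, with 2719, 2944 and 4006 in blastocysts, against 1290, 844 and 2483 in 16-cell libraries (1.19 ± 0.37, adjusted p = 0.0187, up to 0.116 without 16-cell replicate 2 or blastocyst replicate 3). With library medians set equal MED13 was not called.

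The subunits TAF1, MED14 and MED16 and a second row of TAF5L stand in the table under locus numbers, matched to these symbols by gene identifier in RefSeq, and so lie outside the 88. MED14, the backbone of Mediator, had 2426, 2493 and 3268 scaled counts in 8-cell libraries, against 6353, 5408 and 9951 in 4-cell libraries (-1.37 ± 0.27, adjusted p = 0.0014). It had 1162, 1193 and 1235 in blastocysts, lower again than in 16-cell embryos (-0.87 ± 0.27, adjusted p = 0.0186). TAF1, the largest TAF, was higher in blastocysts than in GV oocytes (1.65 ± 0.51, adjusted p = 0.011), with 830, 1131 and 1572 scaled counts in blastocysts, against 268, 526 and 326 in GV oocytes. The TAF5L row had stage means of 460 to 1157 scaled counts, the lowest in MII oocytes and the highest in 16-cell embryos. MED16 and this TAF5L row were called in no comparison.

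Of the 78 calls over the 5 consecutive comparisons, 42 held when each library was left out in turn. Those that held in every setting were 9 of 19 calls in 8-cell embryos (GTF2H1, MED19, MED26, POLR2B, TAF1D, TAF4B and TAF8 higher, MED4 and POLR1B lower), 2 of 28 in 16-cell embryos (POLR2L higher, TAF4 lower) and 11 of 28 in blastocysts. The 11 were GTF2B, GTF2E2, GTF2H1, GTF2H2, POLR3A, POLR3G, POLR3K, TAF1A, TAF2, TAF4B and TAF5, all lower than in 16-cell embryos.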

How the data were processed

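The values are log2-like, variance-stabilised by the authors and deposited as 1 table of 21668 genes by 18 libraries. The tools CASAVA 1.6, TopHat2 2.0.3, HTSeq and DESeq and build UMD3.1 are listed in the submitters' processing notes. What each tool did, the annotation, and how reads with several matches were counted is not given in the sources used here. Per the labels' protocols, cDNA synthesis used mixed priming and isothermal amplification before single-read sequencing. Strand is not marked by this kit as described, so overlapping genes on opposite strands may share reads, and amplified reads are not molecules.

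The lowest value, 1.097, was that of 0 reads. The transformation was inverted in closed form, and 100% of 390024 values gave whole reads within 1e-08. Replicates differed by more than counting noise in every pair. limma 3.58.1 in R 4.3.3 was fitted to the deposited values with stage as the factor over all 18 libraries and a variance trend, on genes with 1 read or more in at least 3 libraries. Tests were two-sided, with Benjamini-Hochberg adjustment over 17138 genes. The procedure was tested on simulated data. Alternatives comprised voom on the recovered reads with 2 scalings, a log2(scaled reads + 1) scale, other filters, equal library medians, array weights, a replicate block, the 2 compared stages alone and each library left out. Leaving out 8-cell replicate 2 and 16-cell replicate 1 together was added after seeing the data.

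Replicate numbers were checked for pairing by correlating deviations from stage means between same-numbered libraries. These ran from -0.108 to 0.202 over 18 pairs and exceeded 0.1 in all 3 pairs in blastocysts against 16-cell embryos alone, where the source of any pairing is not given in the labels.

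The genes and lists were chosen with earlier results of these data known. Values in each library are given for up to 3 largest rises and falls per comparison with an adjusted p under 0.05 and no overlap, for catalytic, scaffold and platform subunits, for paralogs, and for the highest or lowest gene of a complex. Other genes, named to complete the calls of a complex, were chosen after their values were seen. Of the 88 symbols, 87 matched NCBI RefSeq of assembly ARS-UCD2.0, which served for names only. Python 3.11.15, pandas 2.3.3 and matplotlib 3.10.9 made tables and plots. The values of 1 of the 88 genes are not reported here singly; it is included in the counts.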

Additional observations from a re-analysis of the deposited data

How the results depend on the processing

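No call changed direction under any alternative. The count of genes that differ between stages ran from 65 to 73 under all of them, beside 69. For MII against GV oocytes, the number higher was 1 in place of 0 under voom with upper-quartile scaling, equal library medians, array weights and the replicate block. The number lower, 2, was 1 with equal library medians, 6 with array weights and 0 with the 2 stages alone, and 1 to 2 with single libraries left out. For 4-cell embryos against MII oocytes, array weights gave 2 higher and 10 lower. Without a filter, with equal library medians and with the 2 stages alone 0 were lower in place of 1, and leaving out single libraries gave 0 to 1. For 8-cell against 4-cell embryos, the 2 stages alone gave 7 higher in place of 16 (11 to 17 with single libraries left out), and the number lower, 3, was 6 with array weights, 8 with 8-cell replicate 2 and 16-cell replicate 1 both left out, and 3 to 5 with single libraries left out. For 16-cell against 8-cell embryos, the 20 higher became 11 with array weights, 1 with the 2 stages alone, 12 with both libraries left out and 11 to 24 with single libraries left out. The 8 lower became 1 with the 2 stages alone and 4 to 8. For blastocysts against 16-cell embryos, the 3 higher became 1 with equal library medians, 0 with the 2 stages alone and 2 to 4. The 25 lower became 16 with array weights, 16 with the 2 stages alone and 16 to 25. The 2-stage fits and those with libraries left out rest on fewer samples. The causes of the changes were not tested, and shares of all genes were not counted under these alternatives. The counts for blastocysts against GV oocytes stayed within 14 to 17 higher and 23 to 28 lower. With the replicate block, all calls were kept and the counts were 17 and 3 in 8-cell, 20 and 9 in 16-cell and 4 and 27 in blastocysts against the stage before. Same-numbered libraries correlated best with each other in 14 of 18 pairs, as a hint from the data and not the design.

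With 3 libraries per stage and 1 read worth up to 2.82 scaled counts, levels of a few scaled counts, as of the row named TAF5L, TAF7L, POLR3GL and MED11, cannot be ordered.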

Other observations

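Partner genes of the same pathways, 41 in all, which were taken from a list of names and not for how they moved, gave 7 higher (8.64% of all genes were) and 4 lower (4.13%) in 8-cell against 4-cell embryos. They gave 6 higher (14.8%) and 7 lower (16.3%) in 16-cell against 8-cell embryos, 4 higher (18.2%) and 9 lower (13.1%) in blastocysts against 16-cell embryos, and 8 higher (25.6%) and 10 lower (20.4%) in blastocysts against GV oocytes. The genes named below were picked with their values in view.

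The relatives of TBP were low at the end of the course. TBPL1, which encodes a TBP-like factor, had 529, 433 and 428 scaled counts in blastocysts, against 11056, 2925 and 3153 in 16-cell embryos (-3.33 ± 0.37, adjusted p = 9.54e-07). TBPL2, which takes the place of TBP in mouse oocytes, had 0 reads in all blastocyst libraries, against 463, 201 and 238 scaled counts in GV oocytes (-7.06 ± 0.98 in deposited values, adjusted p = 5.97e-06).

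The kinase module of Mediator also includes cyclin C and CDK8. CCNC, which encodes cyclin C, had 360, 134 and 475 scaled counts in 8-cell libraries, against 32.6, 16.4 and 11.8 in 4-cell libraries (3.66 ± 0.67, adjusted p = 0.000644). CDK8 had 1243, 624 and 1266 in 16-cell libraries, against 3152, 2956 and 2211 in 8-cell libraries (-1.46 ± 0.31, adjusted p = 0.00139). Blastocysts had 575, 364 and 510 (-1.06 ± 0.31 against 16-cell embryos, adjusted p = 0.0124).

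Of 14 partners of polymerase III, 4 rose (8.64% of all genes did) and 1 fell (4.13%) in 8-cell against 4-cell embryos. SNAPC5, a subunit of the factor that recognises small nuclear RNA promoters, had 506, 338 and 1284 scaled counts in 8-cell libraries, against 8.44, 7.34 and 11.8 in 4-cell libraries (5.55 ± 0.81, adjusted p = 5.07e-05). SNAPC1 and SNAPC3, of the same factor, rose by 5.04 ± 0.95 (adjusted p = 0.000896) and 3.56 ± 0.44 (adjusted p = 7.47e-06). BDP1, a subunit of TFIIIB, rose by 1.79 ± 0.42 (adjusted p = 0.00608) and again in 16-cell embryos by 1.30 ± 0.42 (adjusted p = 0.024). GTF3C2, a subunit of TFIIIC, fell by 0.84 ± 0.27 (adjusted p = 0.043), with 839, 833 and 756 scaled counts in 8-cell libraries, against 1427, 1390 and 1542 in 4-cell libraries.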
